A study of Mus musculus with 20 samples.

Results

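The genes described here belong to the major histocompatibility complex (MHC) class I antigen presentation pathway. The 9 members were chosen by name as rows of a gene count table: the heavy chains H2-K1, H2-D1, H2-T23 and H2-M3, the light chain B2m, the peptide transporter genes Tap1 and Tap2, the loading factor Tapbp and the regulator Nlrc5. All 9 were found among the 33119 genes of the table, and all 9 were among the 21724 genes with enough counts to be tested. RNA had been sequenced from the hippocampus of 20 mice aged 16 months, 1 library per mouse and 5 mice per group. Every mouse was homozygous for a human APOE allele that replaces the mouse gene on a C57BL/6 background, labelled APOE3 or APOE4 and written hAPOE3 and hAPOE4 here. Males and females of either genotype made up the 4 groups; neither wild-type mice nor a treatment enter the comparisons. The animals had been perfused with saline before the hippocampus was removed, and replicate numbers below only name a mouse within its group.

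Class I molecules display peptides from inside the cell to CD8 T cells and natural killer cells. Peptides cut by the proteasome are carried into the endoplasmic reticulum by the Tap1-Tap2 transporter, loaded on a heavy chain paired with B2m with the help of tapasin, the product of Tapbp, and shown at the cell surface. Interferons raise the expression of these genes, and Nlrc5 is a transcriptional activator of class I genes. In brain, class I genes are expressed by microglia, endothelium and other glia, and neuronal class I molecules have been linked with synaptic plasticity. The questions the design put to these genes were whether they differed between hAPOE4 and hAPOE3, between females and males, and whether the APOE difference depended on sex.

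Promoter sequence is shown first because class I promoters carry shared regulatory letters. RefSeq windows on the GRCm38.p6 build, from 250 bases before to 50 after the start, were held for 7 members, and Tap2 and Nlrc5 had no entry. In H2-K1, H2-M3 and B2m the stretch that spans the matches, except 1 in B2m given below, is printed 5′ to 3′ on the gene's strand, with the matched letters in capitals. These 3 are shown because 1 classical heavy chain, 1 nonclassical heavy chain and the light chain can be set side by side.
H2-K1 (chr17:34000327-34000466, minus strand): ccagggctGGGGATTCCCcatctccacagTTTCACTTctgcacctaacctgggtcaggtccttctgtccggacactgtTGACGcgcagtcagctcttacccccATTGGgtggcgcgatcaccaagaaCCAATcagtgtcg
H2-M3 (chr17:37270097-37270225, plus strand): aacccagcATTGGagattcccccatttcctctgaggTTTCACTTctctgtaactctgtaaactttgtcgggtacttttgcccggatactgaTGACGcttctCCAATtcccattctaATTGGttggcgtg
B2m (chr2:122147542-122147646, plus strand): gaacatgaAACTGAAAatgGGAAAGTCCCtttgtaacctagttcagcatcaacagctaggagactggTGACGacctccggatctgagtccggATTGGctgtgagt
The letters searched, on both strands, were AANNGAAA for the core read by interferon regulatory factors, TGACG for part of the X box, CCAAT for the Y box and GGGNNTTNCC for NF-kB. The first was present in 5 of 7 members against 24.2% of 27025 promoters, the second in 5 of 7 against 21.0%, the third in 7 of 7 against 37.9%, and the last in 3 of 7 against 4.71%. H2-K1, H2-D1, H2-M3 and B2m held all of the first 3, a combination found in 1.67% of promoters. The motifs were chosen after these sequences had been seen, the matches in the printed stretches do not overlap each other, and a match is a description of letters and not of a bound site. B2m held a further TGACG match, on the other strand and after the start, that lies outside the printed stretch. The last CCAAT printed for H2-K1 also lies after the start, so that stretch reaches past it. The H2-D1 and H2-T23 stretches lie inside an exon of a GENCODE transcript of the gene and are not printed.

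On GRCm38, 7 of the 9 members lie on chromosome 17 between 33915899 and 37274484, inside the mouse MHC, B2m lies at chr2:122147686-122153083 and Nlrc5 at chr8:94434356-94527272. Sequence shared between genes limits how well counts can be assigned. Of the 31-base words in the annotated transcripts, 22.8% of those of H2-K1, 26.9% of H2-D1 and 25.8% of H2-T23 also occurred in another gene, so the 3 heavy chains are uncertain at that level. The same share was 26.9% for Tapbp, mostly through the antisense gene Gm19412, 14.3% for Tap2, 4.62% for H2-M3, 4.09% for Tap1, 0.579% for Nlrc5 and 0 for B2m. By gene span, B2m lies wholly inside Patl2 on the opposite strand, and H2-T23 inside the antisense gene A930015D03Rik. Tap1 shares 212 bases of span with Psmb9 on the other strand. An overlap of span is not always shared transcript sequence. With words compared on both strands, B2m shared none with any other gene, and 3.26% of those of Tap1 occurred in Psmb9. For H2-T23 the largest share was with H2-T-ps, at 12.4%. Tapbp shares 3422 bases of gene span with Zbtb22 on the same strand.

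Library totals ran from 35778879 to 52520279 counts. Levels are CPM, each count as a share of its library's total after edgeR's trimmed-mean scaling, and a fold change is given as log2 of the ratio. Some libraries stand apart in marker genes for other cells. In 4 of the 5 hAPOE4 males, replicates 2 to 5, the mean score of 5 oocyte genes was between 2.93 and 3.82, against -1.16 to -0.41 in the other 16 mice. The choroid plexus score, a mean over 12 genes of log2 CPM less its average, ran from -2.23 to 2.71, with 8 mice from -2.23 to -1.64 and 12 from -0.32 to 2.71. Hippocampal markers were present in every library, with a score from -1.08 in hAPOE4 male replicate 5 to 0.52 in hAPOE4 male replicate 1.

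B2m had the highest level per length of exon, at 103 ± 15.6 CPM per kb (SD, n = 20). H2-D1 followed at 16.04 ± 3.61 and H2-K1 at 10.4 ± 2.23 CPM per kb, with ranges over the mice that overlapped. H2-T23, the mouse Qa-1 heavy chain, stood at 4.01, Tap2 at 3.24, Tapbp at 2.097 and H2-M3 at 1.596 CPM per kb. Each of these overlapped the next in the order. Tap1 stood at 0.824 and Nlrc5, the lowest, at 0.255 CPM per kb, without overlap between them. B2m against H2-D1 and H2-K1 against H2-T23 did not overlap either.

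**Figure D1:**
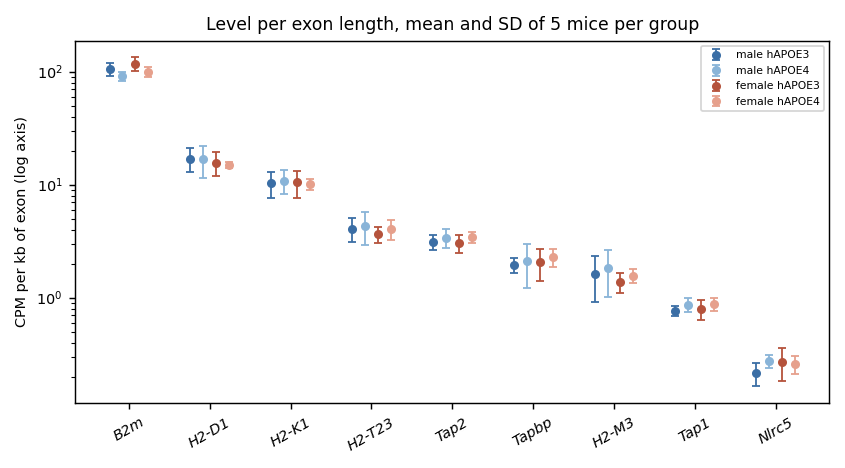
Level of each member in CPM per kb of exon, on a log axis, as the mean (point) and SD (bar) of 5 mice in each of the 4 groups. B2m lies highest at about 103 CPM per kb over all mice and Nlrc5 lowest at about 0.255, and the 4 groups lie close together for each gene.

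None of the 9 members passed an adjusted p of 0.05 (edgeR quasi-likelihood test, Benjamini-Hochberg over 21724 genes) in any of the 7 comparisons. Between hAPOE4 and hAPOE3 males 0 of 9 were called, where 0.621% of all tested genes were, and between hAPOE4 and hAPOE3 females 0 of 9, where 0.667% were. Over both sexes together the APOE difference called 0 of 9 members and 2.45% of all genes. Females against males called 0 of 9 in hAPOE3 mice, against 0.0414% of all genes, 0 of 9 in hAPOE4 mice, against 0.437%, and 0 of 9 over both genotypes, against 0.129%. The interaction of sex and APOE called 0 of 9 members and 0.184% of all genes. At these shares, 9 genes would hold less than 1 call in every comparison. At an unadjusted p under 0.05, 1 of 9 members, B2m, passed in females, where 2196 of the 21724 genes did, and over both sexes, where 3898 did, and none in the other 5 comparisons, and DESeq2 called 0 of 9 in each. For every member the ranges of the groups overlapped in every comparison except the interaction, for which overlap is not defined.

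B2m, the light chain that every class I heavy chain needs, had the largest difference between group means relative to its spread. B2m read 78.6, 79.6, 109.5, 91.1 and 94.2 CPM in the 5 hAPOE3 males and 76.6, 80.6, 80.6, 86.99 and 66.2 in the 5 hAPOE4 males. Females had 114, 95.7, 80.8, 98.6 and 116 CPM in hAPOE3 and 88.9, 79.4, 89.04, 97.6 and 73.6 in hAPOE4 mice. The group means were 90.6 ± 12.6 CPM in the males with hAPOE3 and 78.2 ± 7.65 in those with hAPOE4, and 101 ± 14.3 against 85.7 ± 9.34 in the females (SD, n = 5). Both hAPOE4 means lay below both hAPOE3 means, but the mice of the groups overlapped. The log2 fold change of hAPOE4 over hAPOE3 was -0.21 in males, with a 95% interval of -0.44 to 0.0203, and -0.24 in females, with -0.47 to -0.00297. Over both sexes it was -0.22 with a standard error of 0.079 and an adjusted p of 0.137 from edgeR, so it did not pass the threshold. Leaving out 1 mouse at a time or changing the method moved that value between -0.26 and -0.19 and never took the adjusted p under 0.0781. The difference between females and males was 0.14 over both genotypes (edgeR adjusted p = 0.561), and the interaction was -0.023 with an interval of -0.35 to 0.31.

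**Figure D2:**
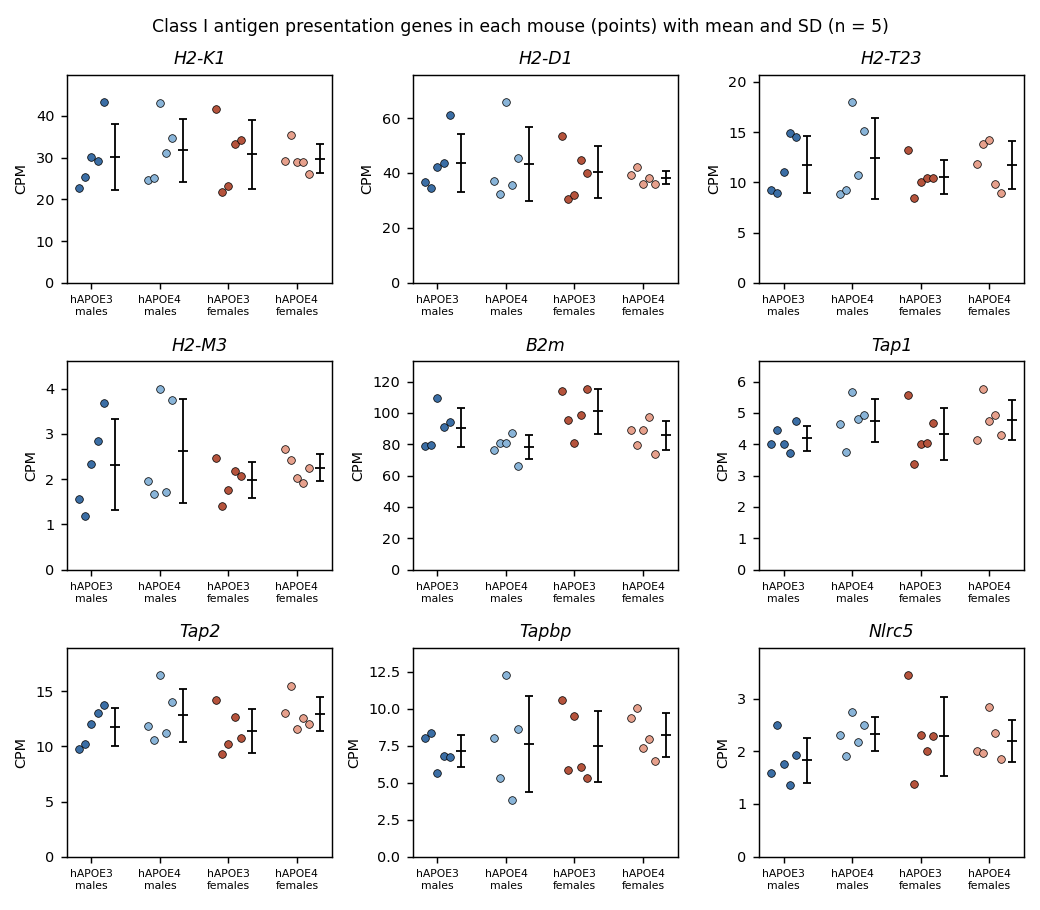
CPM of each member in each mouse (points, 5 per group), with the mean and SD of the group beside them; every vertical axis starts at 0. The groups overlap for all 9 genes, and hAPOE4 male replicate 3 is among the 2 highest of the 20 mice for each of the 4 heavy chains.

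H2-D1 and H2-K1, the classical heavy chains, differed more between mice of a group than between groups. H2-D1 read 36.8, 34.6, 42.2, 43.5 and 61.1 CPM in the 5 hAPOE3 males and 37.05, 32.2, 65.9, 35.7 and 45.3 in the 5 hAPOE4 males. Females had 53.5, 30.7, 31.98, 44.8 and 40.2 CPM in hAPOE3 and 39.3, 42.1, 36.2, 38.1 and 36.01 in hAPOE4 mice. The highest mouse of all, hAPOE4 male replicate 3, read 2.15 times the lowest, hAPOE3 female replicate 2. H2-K1 read 22.6, 25.3, 30.2, 29.1 and 43.4 CPM in the 5 hAPOE3 males and 24.6, 25.2, 43.03, 31.1 and 34.7 in the 5 hAPOE4 males. Females had 41.6, 21.8, 23.3, 33.2 and 34.1 CPM in hAPOE3 and 29.3, 35.5, 28.9, 28.97 and 26.1 in hAPOE4 mice. On the log2 scale the group means of H2-D1 spanned 0.16 and those of H2-K1 0.079, against standard deviations within groups of 0.31 and 0.32. The hAPOE4 over hAPOE3 difference in H2-K1 was 0.011 over both sexes, with an interval of -0.27 to 0.29, and in H2-D1 -0.042, with -0.32 to 0.23.

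H2-T23 and H2-M3 are nonclassical heavy chains, the first a ligand of the CD94-NKG2 receptors and the second a presenter of N-formylated peptides. H2-T23 ranged from 8.48 to 18.02 CPM and H2-M3 from 1.19 to 4.003 over the 20 mice. H2-M3 had between 45 and 200 counts per mouse and H2-T23 between 337 and 896. Neither was called, and the APOE difference over both sexes was 0.12 for H2-T23 and 0.18 for H2-M3, with intervals of -0.18 to 0.41 and -0.25 to 0.60. In females against males H2-M3 stood at -0.23 and H2-T23 at -0.12, neither called, and with the oligodendrocyte score described below as a covariate both changed sign, to 0.14 and 0.093. With the choroid plexus score as covariate they moved the other way, to -0.45 and -0.36 (edgeR adjusted p = 0.189 and 0.0847). Both scores were unbalanced between the sexes. The oligodendrocyte score averaged 0.22 in hAPOE3 and 0.082 in hAPOE4 males, against -0.16 and -0.14 in the females. The choroid plexus score averaged -0.89 and -0.73 in the males against 0.60 and 1.02 in the females.

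Of the transport and loading genes, Tap1 and Tap2 encode the transporter subunits and Tapbp tapasin. Tap2 read 9.801, 10.2, 12.01, 13.02 and 13.8 CPM in the 5 hAPOE3 males and 11.9, 10.6, 16.5, 11.2 and 14.01 in the 5 hAPOE4 males. Females had 14.2, 9.28, 10.2, 12.7 and 10.8 CPM in hAPOE3 and 13.01, 15.5, 11.6, 12.6 and 12.02 in hAPOE4 mice. The highest Tap2 values belonged to hAPOE4 male replicate 3 and hAPOE4 female replicate 2, and the groups overlapped. Tap1 ran from 3.37 to 5.77 CPM and Tapbp from 3.84 to 12.3. The differences of hAPOE4 over hAPOE3 were 0.16 for Tap1, 0.15 for Tap2 and 0.12 for Tapbp over both sexes, with edgeR adjusted p of 0.412, 0.445 and 0.757.

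Nlrc5, the activator, had the widest APOE difference of the members in males. Nlrc5 read 1.58, 2.502, 1.75, 1.37 and 1.94 CPM in the 5 hAPOE3 males and 2.32, 1.904, 2.76, 2.17 and 2.51 in the 5 hAPOE4 males. Females had 3.44, 1.38, 2.31, 2.01 and 2.29 CPM in hAPOE3 and 2.01, 1.96, 2.84, 2.34 and 1.86 in hAPOE4 mice. The highest mouse was hAPOE3 female replicate 1. The difference of hAPOE4 over hAPOE3 was 0.35 in males, with an interval of -0.0796 to 0.78, and -0.054 in females, with -0.48 to 0.38. The interaction was -0.41 with a standard error of 0.29 and an edgeR adjusted p of 0.9999, so the APOE difference was not shown to depend on sex. With the factors of the deposited normalized counts as offsets the interaction was -0.72 and the female difference -0.35, and without hAPOE3 female replicate 1 the interaction was -0.21. With the deposited normalized counts, which divide the counts of Nlrc5 by a factor between 0.48 and 1.79 that differs from mouse to mouse, the difference over both sexes was 0.0055 instead of 0.15.

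**Figure D3:**
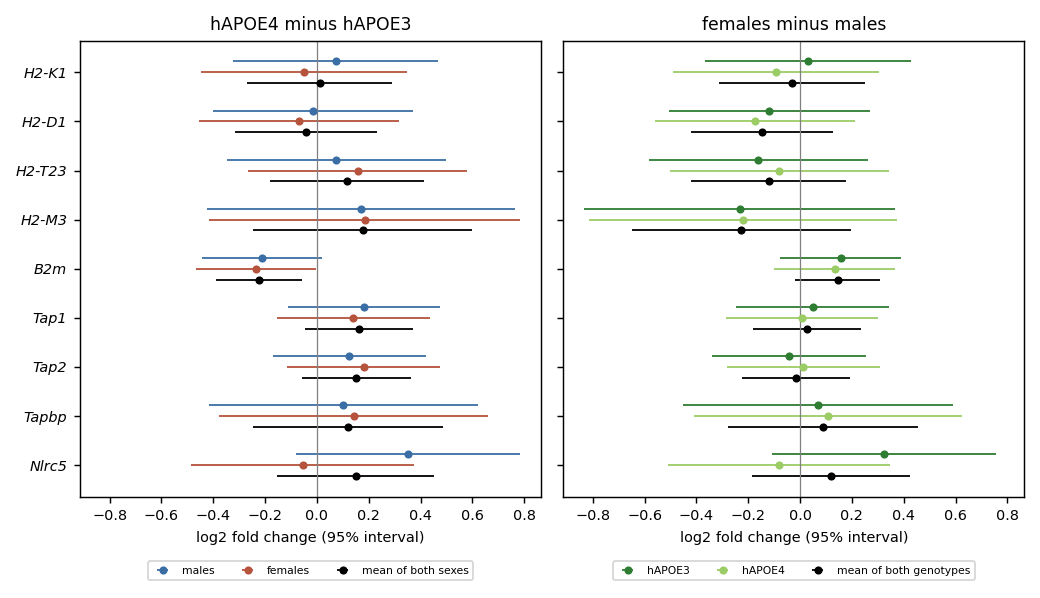
Log2 fold change (point) with its 95% interval (line) for each member, at left for hAPOE4 minus hAPOE3 in males, females and over both sexes, at right for females minus males in each genotype and over both. Nearly all intervals cross 0; only those of B2m for the APOE difference in females and over both sexes lie below it, and neither passes after adjustment.

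Each 95% interval holds for 1 gene without adjustment, and its limit is not the smallest difference that could have been called. In males the intervals of the 9 members for hAPOE4 over hAPOE3 reached from -0.44 to 0.78, a widest limit of 1.72-fold. In females they reached from -0.48 to 0.78, and over both sexes the widest limit was 1.52-fold. For females over males it was 1.78-fold in hAPOE3 and 1.76-fold in hAPOE4 mice, and for the interaction 2.02-fold. Of the 9 members, 7 lay above 0 for hAPOE4 over hAPOE3 over both sexes, with a median of 0.12 against 0.0016 for all genes tested. Several members vary together from mouse to mouse, as given below, so these signs are not separate observations. A shared APOE difference of the members was not tested. For females over males 4 of 9 lay above 0, with a median of -0.015 against -0.0046 for all genes.

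The members did not vary independently from mouse to mouse. With each group's mean removed, H2-K1, H2-D1, H2-T23, H2-M3 and Tap2 varied together over the 20 mice. The 10 pairs of these 5 genes had a Pearson r from 0.79 to 0.93 and a Spearman rho from 0.74 to 0.94, and all 10 passed (permutation of mice within groups, adjusted over 36 pairs, highest adjusted p = 0.000684). Without the 2 mice farthest from the median of the first gene of a pair, in the order just named, the r ran from 0.71 to 0.92. With the deposited normalized counts it ran from 0.49 to 0.93, the low values falling on Tap2. H2-K1, H2-D1 and H2-T23 share sequence with other class I genes, and the part of this in their correlations was not tested. By contrast, none of the 8 pairs with B2m passed (r from -0.34 to 0.43), nor any of the 8 with Tapbp (r from -0.34 to 0.51). Tap1 passed with 5 of 8 genes, 3 of 8 by rank, among them Nlrc5 at r = 0.74, but with the normalized counts that pair stood at 0.16. The 5 genes were grouped after their correlations were seen. Many other genes followed them as closely. By r with H2-K1 over all tested genes, H2-D1 ranked 1, Tap2 14, H2-T23 197 and H2-M3 233. By r with H2-D1, H2-T23 ranked 311. The share of all gene pairs that would pass is not given here.

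**Figure D4:**
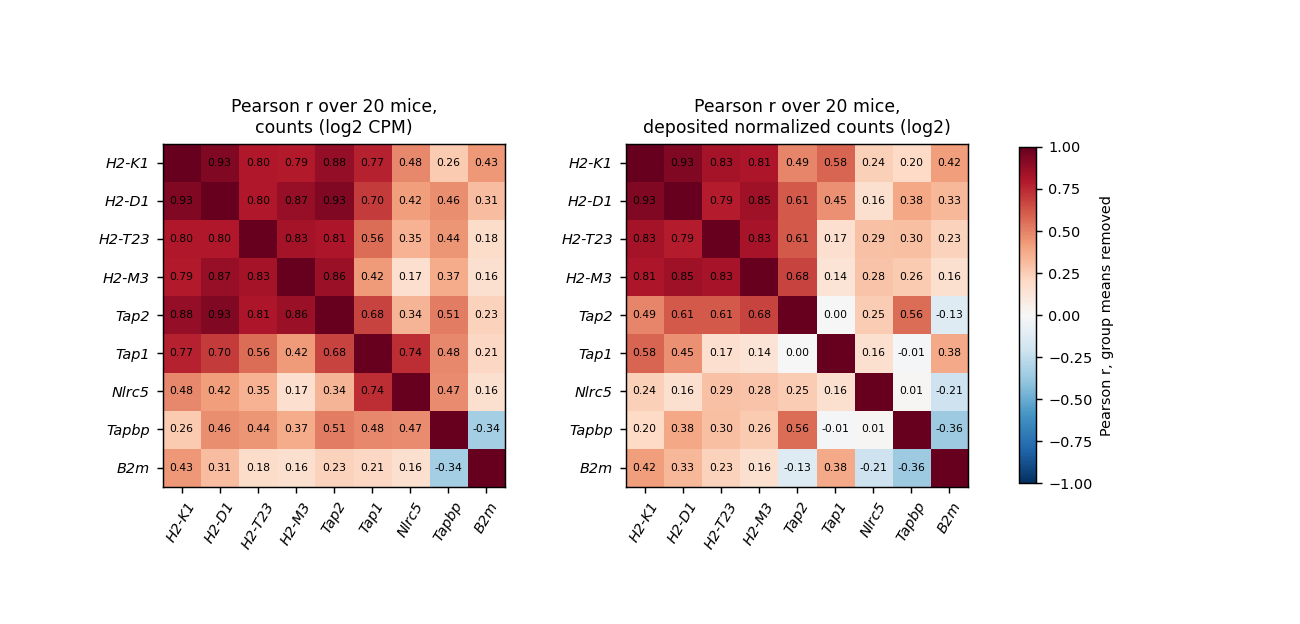
Pearson r between members over 20 mice after removal of group means, from log2 CPM at left and from log2 of the deposited normalized counts at right; red is positive and blue negative. The 4 heavy chains form a block from about 0.79 to 0.93 in both panels, Tap2 joins it more weakly at right, and B2m and Tapbp stay apart.

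The pairs of these 5 genes were also computed within the 2 sets of mice on either side of the widest gap of the choroid plexus score, a split chosen after the score was seen. In the 12 mice with the higher scores r ran from 0.70 to 0.94 and rho from 0.53 to 0.91, and in the 8 with the lower scores r ran from 0.21 to 0.84 and rho from -0.048 to 0.83. The genes had been picked for their correlation over these same mice, and whether the 2 sets differ was not tested. The sets were also uneven by sex. The lower one held hAPOE3 male replicates 1, 2 and 3 and hAPOE4 male replicates 1, 2 and 4. Its only females were hAPOE3 female replicate 3 and hAPOE4 female replicate 5. These r are therefore a description only.

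The heavy chains and Tap2 also followed markers of other cell types, with each group's mean removed. H2-T23 was lower where the score of 8 neuronal genes was higher (r = -0.88, rho = -0.89, permutation, adjusted p over 99 relations = 0.00127 and 0.00165), and without the 2 mice farthest out r was -0.87. H2-D1 was higher where the score of 6 oligodendrocyte genes was higher (r = 0.86, rho = 0.85, permutation adjusted p = 0.00257 and 0.00385), and r was 0.74 without hAPOE3 male replicate 5 and hAPOE4 male replicate 3. Those 2 mice had the highest oligodendrocyte scores, 1.14 and 0.80, and the lowest neuronal ones, -0.22 and -0.15. Counted by list, 6 of 9 members passed with the neuronal score (negative), and 0.184 to 13% of all tested genes followed that score at least as far in the same direction as each of them. With the oligodendrocyte score 5 passed, where that share was 0.617 to 5.5%, and with the hippocampal score (negative) 5, with 0.58 to 5.74%. With border macrophages 4 passed, with 2.35 to 6.82%, with endothelium only H2-T23, with 4.63%, and with astrocytes or blood 0. With the choroid plexus score 5 passed over the 20 mice, H2-K1, H2-D1, H2-T23, H2-M3 and Tap2, all positive, with 1.37 to 5.19% of all genes. Because the mice fall into 2 sets on that score, it was also taken within each set, with the group means left in. There 0 of 18 relations passed (permutation, adjusted over 18) and 2 had an unadjusted p under 0.05, H2-K1 at r = 0.75 and Tapbp at r = -0.78 in the 8 mice with the lower scores. Each set held only 8 or 12 mice and part of the range of the score, -2.23 to -1.64 in the lower one. Mice were also permuted without regard to group. The within-set results therefore cannot decide whether these genes follow the score inside a set. For the same 5 genes r within sets ran from -0.015 to 0.75 and rho from -0.028 to 0.62. In bulk tissue a change in the number of cells of a type and a change of RNA per cell cannot be told apart, and the part of these markers in the spread of class I genes was not tested.

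Microglia, the resident immune cells of brain, gave no relation that passed. The r of the 9 members with the score of 12 microglial genes ran from -0.052 to 0.43, and 0 of 9 passed. The summed level of the microglial genes lay between 449.6 and 554 CPM over the mice. B2m passed with none of the 11 marker lists. With the T cell and NK cell list 6 of 9 members passed by Pearson's r and 4 also by rank, and 0.0875 to 11.5% of all genes followed it at least as far as each of the 6. Those 4 were H2-K1, H2-D1, H2-M3 and Tap2 (r from 0.76 to 0.80, permutation adjusted p of at most 0.0102), but only 3 of its 10 genes, Trac, Lck and Ccl5, had enough counts, and the defining markers Cd3e and Cd3g averaged 4.95 and 7.9 counts a mouse. The whole list summed to between 1.98 and 4.82 CPM.

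**Figure D5:**
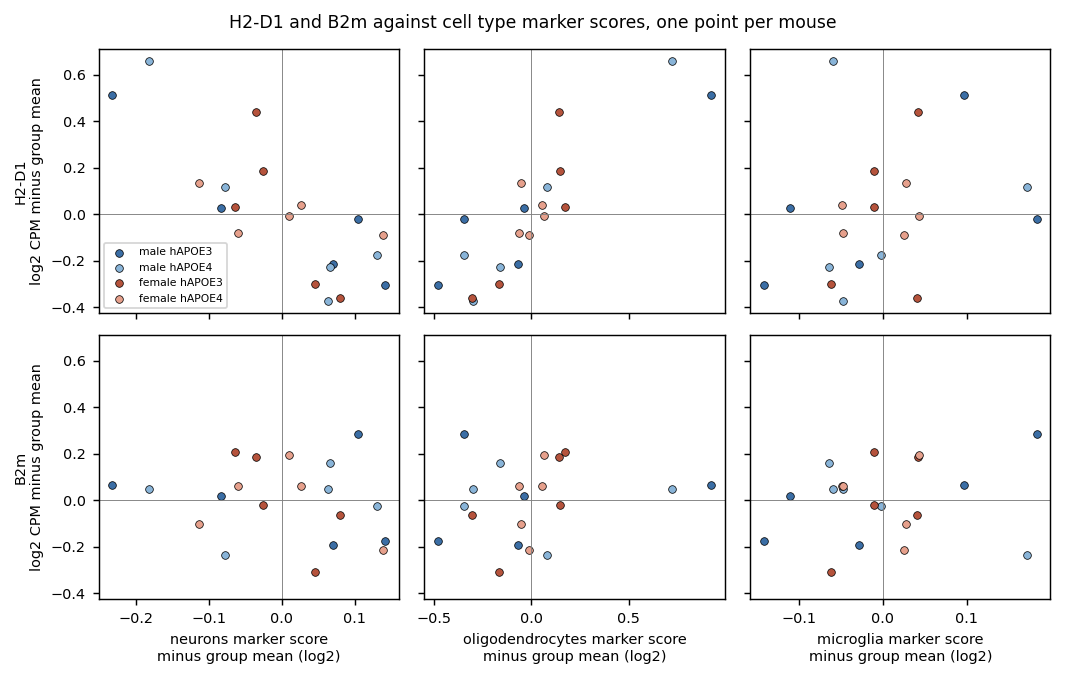
H2-D1 (top row) and B2m (bottom row) against the scores of neuronal, oligodendrocyte and microglial markers, all as log2 values with the group mean removed, 1 point per mouse coloured by group. H2-D1 falls with the neuronal score and rises with the oligodendrocyte score, with 2 male mice far out, while none of the 3 relations of B2m passed.

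By similarity of pattern over the 20 mice, among 16087 genes, H2-K1 was most like Ifi35, an interferon-induced gene, at r = 0.92, followed by Selenbp1 and Six3os1. H2-D1 was most like Tmem268, Gsn and Tspan4, and H2-T23 most like Ctnnal1 at r = 0.94, Vat1l and Mycbpap. Card19, Dusp26 and Uap1l1 were closest to H2-M3, and Selenbp1, Ltbr and Uap1l1 to Tap2. B2m stood near Tmco1, Poglut1 and Twistnb (r from 0.83 to 0.86), Tap1 near Ccdc162, Ttc21a and Ak7, and Tapbp near H6pd, Cul7 and Fam149a. The closest to Nlrc5 were Cd24a, Fibin and Gm36356, with r no higher than 0.74. The mean of the 9 members was closest to Selenbp1, Col9a2 and Parp10. These r are from log2 CPM. With the deposited normalized counts the same 30 pairings had r from 0.073 to 0.95, and 6 of 30 fell below 0.5, namely Uap1l1 with Tap2, Cul7 with Tapbp, Twistnb with B2m and all 3 genes named for Nlrc5.

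The rest of the pathway was examined by lists. Beside the counts below, the share of all tested genes called ran from 0.0414% to 2.45% over the 7 comparisons. Of 12 other class I heavy chains tested, 0 were called in any comparison. The most abundant, H2-T22, H2-Q4 and H2-Q7, stood at 0.014, -0.083 and -0.071 for hAPOE4 over hAPOE3 over both sexes. Over the 12 that difference ran from -0.53 to 0.97, with a median of 0.016. Females over males, over both genotypes, ran from -1.36 for H2-Bl (edgeR adjusted p = 0.119) to 1.02 for H2-Q1. H2-Bl averaged only 0.34 CPM in females and 0.86 in males. The class I-like and other lists are given for the same APOE difference. Of the 4 class I-like genes tested, 0 were called, with Fcgrt at 0.094, Mr1 at 0.038 and Hfe at 0.17. Of the 6 assembly and trimming genes, 0 were called; the chaperones Canx and Calr stood at 0.072 and 0.13 and the thiol oxidoreductase Pdia3 at 0.17, with an edgeR adjusted p of 0.193. The 5 genes listed with the immunoproteasome, the proteasome form induced by interferon, held 0 calls, with Psme1 at -0.066, Psmb10 at -0.28 and Psme2 at -0.081. The 8 constitutive proteasome genes held 0 calls as well, with Psmb7 at -0.17, Psmb1 at -0.091 and Psma3 at -0.24 (edgeR adjusted p = 0.0985).

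Among 14 regulators of class I genes, 1 was called over both sexes, where 2.45% of all tested genes were. Nfya, a subunit of the factor that binds CCAAT, was higher in hAPOE4 by 0.27 with a standard error of 0.064 (edgeR adjusted p = 0.0282). It read 21.5, 21.97, 18.9, 17.5 and 21.9 CPM in hAPOE3 males and 28.2, 24.3, 25.9, 22.9 and 25.2 in hAPOE4 males. The females read 23.8, 23.2, 22.9, 20.04 and 19.6 CPM in hAPOE3 and 23.4, 27.1, 28.7, 24.8 and 23.9 in hAPOE4 mice. The males did not overlap between genotypes and the females did. The share of all genes without such overlap is not given here. The other subunits were not called, with Nfyb at -0.16 and Nfyc at -0.0398, nor was Creb1 at 0.0600.

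Among the receptors of class I molecules and their partners, 3 of 8 genes could be tested and Cd3d, a subunit of the T cell receptor complex, fell. It read 2.09, 1.501, 1.51, 3.29 and 3.56 CPM in hAPOE3 males and 0.507, 0.476, 0.443, 0.477 and 0.658 in hAPOE4 males. Females read 1.58, 2.26, 1.68, 1.69 and 2.92 CPM in hAPOE3 and 0.592, 0.409, 0.322, 0.797 and 0.5495 in hAPOE4 mice. The genotypes did not overlap in either sex, and the share of all genes for which this holds is not given here. The log2 fold change of hAPOE4 over hAPOE3 was -2.22 in males, -1.92 in females and -2.07 over both, with edgeR adjusted p of 0.000213, 0.00107 and 2.17e-06. Of all tested genes, 0.621% were called in males, 0.667% in females and 2.45% over both. The interaction for Cd3d was 0.30 and was not called. Cd8a, the coreceptor of class I restricted T cells, stood at 0.17 and Pirb, a class I receptor, at -0.25, neither called. The other T cell receptor gene of the list, Cd3e, reached no more than 16 counts in any mouse, and Cd8b1, Klrk1, Klrd1 and Klrc1 no more than 11, so these 5 were not tested. Cd3d is not part of the T cell and NK cell score described above. That score averaged -0.030 in hAPOE3 and -0.0061 in hAPOE4 males, and -0.0022 and 0.038 in the females. Its difference between genotypes was not tested, nor was a change in the number of T cells.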

How the data were processed

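RNA from the hippocampus of 20 mice was sequenced as polyA-selected paired reads. The authors quantified transcripts with Salmon 0.91 against Ensembl mouse cDNA, summed them per gene with tximport and deposited estimated counts rounded to whole-number counts, together with normalized counts from DESeq2. The deposited normalized counts, a signal per gene, divide by a factor that differs between genes and mice. Here groups were formed from the labels' sex and genotype. Counts of 21724 of 33119 genes that passed edgeR's filterByExpr were fitted with edgeR 4.0.16 (R 4.3.3), trimmed-mean scaling and a mean for each group, and 7 contrasts were tested by quasi-likelihood with Benjamini-Hochberg adjustment at 0.05. Separate mice are separate libraries. The study fitted sex, APOE and their interaction in DESeq2; DESeq2 1.42.0 and limma 3.58.1 on log2 of normalized counts plus 1 were alternatives, as were other scaling, no filter, only the groups compared, a choroid plexus score as covariate and each mouse left out. Correlations used log2 CPM (prior count 2) with group means removed and permutation within groups. All members were named in every comparison, other pathway genes where called or otherwise the 3 most abundant of a list; genes most like each member were ranked by Pearson r. Counts per library summed to between 35778879 and 52520279, and intervals cover the spread between mice. The members and lists were chosen with earlier results of these data known. Exon lengths and positions came from GENCODE on GRCm38 and promoters from RefSeq.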

Additional observations from a re-analysis of the deposited data

How the results depend on the processing

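Every one of the 7 comparisons called 0 of 9 members under each alternative and with each of the 20 mice left out, by edgeR, by DESeq2 and by limma on the deposited normalized counts. Among the alternatives, the normalized-count factors as offsets and the oligodendrocyte score as covariate were added after the data had been seen. Differences that were not called and changed sign are listed as log2 fold changes, hAPOE4 minus hAPOE3 for APOE and females minus males for sex; the cause was not tested. With limma on the deposited normalized counts, APOE in females gave 0.016 for H2-K1, sex in hAPOE3 gave 0.13 for Tap2, sex in hAPOE4 gave -0.15 for Tap1, sex over both genotypes gave -0.061 for Tap1, 0.11 for Tap2 and -0.00054 for Nlrc5 and the interaction gave 0.0081 for B2m and -0.043 for Tap2. With the choroid plexus score as covariate, sex in hAPOE3 gave -0.18 for H2-K1, -0.044 for Tap1 and -0.037 for Tapbp, sex in hAPOE4 gave -0.092 for Tap1, -0.13 for Tap2 and -0.00040 for Tapbp, APOE over both sexes gave -0.017 for H2-K1, sex over both genotypes gave -0.068 for Tap1 and -0.019 for Tapbp and the interaction gave -0.0075 for H2-M3. With factors of the normalized counts as offsets, sex in hAPOE3 gave 0.14 for Tap2, sex in hAPOE4 gave -0.14 for Tap1, sex over both genotypes gave -0.046 for Tap1 and 0.10 for Tap2 and the interaction gave 0.0071 for B2m and -0.077 for Tap2. With the oligodendrocyte score as covariate, APOE in males gave 0.061 for H2-D1, sex in hAPOE3 gave 0.16 for H2-D1, 0.0797 for H2-T23, 0.20 for H2-M3 and 0.11 for Tap2, sex in hAPOE4 gave 0.088 for H2-K1, 0.032 for H2-D1, 0.11 for H2-T23 and 0.076 for H2-M3, sex over both genotypes gave 0.19 for H2-K1, 0.10 for H2-D1, 0.093 for H2-T23, 0.14 for H2-M3 and 0.11 for Tap2 and the interaction gave -0.12 for H2-M3. APOE in males, with 1 mouse left out, ran from -0.062 to 0.24 for H2-K1, -0.22 to 0.14 for H2-D1, -0.10 to 0.17 for H2-T23, -0.035 to 0.40 for H2-M3 and -0.14 to 0.27 for Tapbp. APOE in females, with 1 mouse left out, ran from -0.15 to 0.082 for H2-K1, -0.15 to 0.055 for H2-D1 and -0.19 to 0.14 for Nlrc5. Sex in hAPOE3, with 1 mouse left out, ran from -0.10 to 0.20 for H2-K1, -0.24 to 0.033 for H2-D1, -0.0597 to 0.12 for Tap1, -0.13 to 0.022 for Tap2 and -0.093 to 0.17 for Tapbp. Sex in hAPOE4, with 1 mouse left out, ran from -0.17 to 0.042 for H2-K1, -0.26 to 0.0298 for H2-D1, -0.18 to 0.10 for H2-T23, -0.071 to 0.076 for Tap1, -0.0599 to 0.12 for Tap2 and -0.0599 to 0.35 for Tapbp. APOE over both sexes, with 1 mouse left out, ran from -0.056 to 0.10 for H2-K1 and -0.14 to 0.035 for H2-D1. Sex over both genotypes, with 1 mouse left out, ran from -0.10 to 0.053 for H2-K1, -0.026 to 0.066 for Tap1 and -0.0602 to 0.038 for Tap2. The interaction, with 1 mouse left out, ran from -0.29 to 0.013 for H2-K1, -0.21 to 0.15 for H2-D1, -0.015 to 0.26 for H2-T23, -0.22 to 0.22 for H2-M3, -0.10 to 0.032 for B2m, -0.12 to 0.066 for Tap1, -0.017 to 0.16 for Tap2 and -0.13 to 0.28 for Tapbp. Counts over all genes moved more. As a multiple of the main count, they ran with 1 mouse left out from 0.733 to 2.13 for APOE in males, 0.5103 to 1.77 for APOE in females, 0.532 to 1.49 for APOE over both sexes, 1 to 1.67 for sex in hAPOE3, 0.737 to 2.89 for sex in hAPOE4, 0.5 to 5.93 for sex over both genotypes and 0.75 to 2.95 for the interaction. Across the other alternatives they ran from 0.333 to 1.72 for APOE in males, 0.703 to 2.38 for APOE in females, 0.784 to 2.04 for APOE over both sexes, 0.889 to 2.56 for sex in hAPOE3, 0.337 to 1.99 for sex in hAPOE4, 0.321 to 5.75 for sex over both genotypes and 0.4 to 1.6 for the interaction. The highest of the first came without hAPOE4 male replicate 1 for 5 comparisons and without hAPOE3 female replicate 1 for 2, and the highest of the second from DESeq2 for 6 and without a filter on low counts for 1. Of 63 member differences per setting, those that kept their sign but moved by over 1.5 times and by over 0.1 were 13 with the choroid plexus score, 9 with limma, 6 with the offsets, 7 with the oligodendrocyte score and 0 with DESeq2, other scaling or no filter; with 1 mouse left out they were 55 of 1260. All those with the choroid plexus score were sex differences, and over both genotypes they became -0.24 for H2-K1, -0.33 for H2-D1, -0.36 for H2-T23, -0.45 for H2-M3 and -0.15 for Tap2. The score itself averaged -0.89 in hAPOE3 and -0.73 in hAPOE4 males, against 0.60 and 1.02 in the females. The covariate is thus partly confounded with sex, and these shifts cannot be separated from that imbalance. No paired analysis was possible because each mouse belongs to 1 group and the replicate numbers used here link no mice of different groups. Counts limit Nlrc5 and H2-M3 most, at 55 to 142 and 45 to 200 a mouse.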
